A study of Homo sapiens with 13 samples.

Results

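The 4 genes of the NDRG family, NDRG1, NDRG2, NDRG3 and NDRG4, were followed across an array series on iron chelators in SW480, an established line of human colon cancer cells. Each of the 4 genes was represented by 1 transcript cluster, the row of the value table that pools the probes of a gene, and they were taken by symbol from 18404 measured genes. The clusters were 8153002 for NDRG1, 7977621 for NDRG2, 8066051 for NDRG3 and 7996219 for NDRG4. A further cluster names NDRG2 together with PAPLN and was not used.

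Cells had been kept for 6 h in 100 mM DFO (n = 4), in 50 mM Deferasirox (n = 3), in 10 mM OICR623 (n = 2) or in the solvent DMSO at 0.1% (n = 4). All groups are of the same line, and per the series text the replicates come from separate experiments. DFO, or deferoxamine, and Deferasirox are given to patients to remove excess iron, while OICR623 is a code name and its structure is not described here. The doses are those of the labels, they are high for cultured cells and differ between the compounds, and nothing in the labels settles whether another unit was meant.

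NDRG proteins share an alpha/beta hydrolase-like fold without a known hydrolase activity. NDRG1 is transcribed more strongly when cells lack oxygen or iron, as a target of the hypoxia-inducible factors (HIF), whose alpha subunits are marked for breakdown by iron-dependent prolyl hydroxylases. NDRG1 is also repressed by MYC and MYCN, is phosphorylated by SGK1 and GSK3, and has been studied as a suppressor of metastasis in colon cancer. NDRG2 is best known in brain, muscle and heart and is often silenced in tumours, NDRG3 is a protein that binds lactate and is itself degraded through a prolyl hydroxylase, and NDRG4 is expressed mainly in brain and heart and is methylated in many colon tumours.

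The array medians of log2 signal formed 3 levels, which cut across the groups. The high level (7.17 to 7.19) held DFO 1 and DMSO 1, the low level (6.52 to 6.55) held DFO 4, Deferasirox 3 and DMSO 4, and the middle level (6.64 to 6.69) held the other 8 arrays, 2 of each group. DFO 1 and DMSO 1 held exactly equal values in 8530 of 32321 transcript clusters. Any 2 arrays of the low level shared 85 to 107 such values, 2 arrays of the middle level 5 to 35 and 2 arrays of different levels 0. NDRG2 and NDRG4 were among the genes with equal values in DFO 1 and DMSO 1, so the high level could show no difference for them. The cause of the levels and of the equal values was not tested, and results are given with the level as a block and, for the 4 members against DMSO and the lists, also without DFO 1 and DMSO 1. In such bulk samples, fewer cells with a transcript and less of it per cell cannot be told apart. Of 12 measured markers of epithelium and colon, 6 had a mean signal above the median gene at 7.46. Among these 6 were KRT8 (12.7), KRT18 (13.02) and EPCAM (9.64). CDX1, VIL1, LGALS4, CDH1 (5.52), KRT20 (5.28) and CEACAM5 (4.92) lay below the median gene. Of the markers of other lineages, CD68 (9.18) among 4 measured of leukocytes and COL1A1 (7.77) among 5 of fibroblasts lay above the median gene, as did 0 of 4 of endothelium and 0 of 5 of neurons and glia. None of these 4 lists held a gene called in any comparison with DMSO, while 2 of 12 epithelial markers were called in at least 1 of these. Calls between compounds were not checked for the markers.

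NDRG1 was the member that responded, and it did so under all 3 compounds. Its log2 signal was 12.11, 11.88, 11.90 and 11.91 in DFO 1 to 4. It was 11.99, 11.99 and 12.07 in the 3 Deferasirox arrays and 11.71 and 11.74 in the 2 OICR623 arrays. The DMSO arrays stood at 11.13, 10.55, 10.42 and 10.42. Every array of a compound lay above every DMSO array, although DMSO 1 was higher than the other DMSO arrays. Such a separation above DMSO was seen in 0.326% of all genes for DFO, in 0.451% for Deferasirox and in 1.11% for OICR623, and for 0 of the other 3 members.

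**Figure D1:**
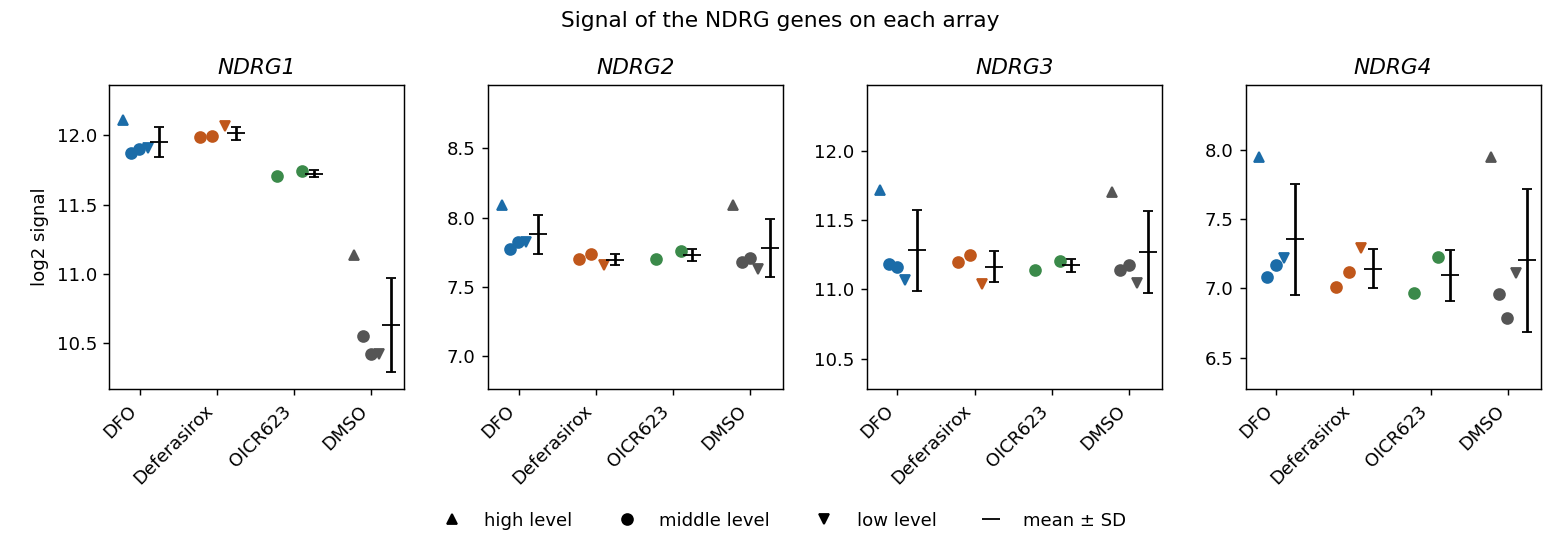
Log2 signal (y axis) of NDRG1, NDRG2, NDRG3 and NDRG4 on each array, by group (x axis). Marker shapes give the level of the array median, and bars give the mean and SD of a group. NDRG1 lies above every DMSO array in each compound, while the high-level arrays DFO 1 and DMSO 1 are the highest arrays of NDRG2, NDRG3 and NDRG4.

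With the level as a block, NDRG1 was 1.32 higher under DFO than in DMSO on the log2 scale (SE 0.073, 95% interval 1.16 to 1.48; limma adjusted p = 1.6e-06). That is a 2.50-fold difference, and with DFO 1 and DMSO 1 left out it was 1.43 (SE 0.050). Under Deferasirox the difference was 1.50 (SE 0.081, interval 1.32 to 1.68; limma adjusted p = 2.4e-06), or 2.82-fold, and 1.55 (SE 0.050) without those 2 arrays. Under OICR623 it was 1.21 (SE 0.095, interval 1.00 to 1.42; limma adjusted p = 1.6e-04), or 2.31-fold, and 1.26 (SE 0.058) without them. The 3 comparisons share the DMSO arrays and are not independent. By size of the log2 change, NDRG1 stood in place 12 from the top of 18404 genes under DFO, in place 12 under Deferasirox and in place 10 under OICR623. NDRG1 alone of the 4 members was thus called in each comparison, where 4.6% of all genes were called under DFO, 5.84% under Deferasirox and 0.734% under OICR623. A test over all 4 groups at once gave NDRG1 a limma adjusted p of 3.6e-06, while the other members had values between 0.45 and 0.91.

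Within each level NDRG1 was higher in the compound than in DMSO, in all 6 comparisons the levels allow. DFO 1 exceeded DMSO 1 by 0.98 in the high level. The mean difference of DFO and DMSO was 1.40 in the middle level and 1.49 in the low level, where each group has 1 array. For Deferasirox it was 1.50 in the middle level and 1.65 in the low level, and for OICR623, which has arrays in the middle level only, it was 1.24. Without a block, the NDRG1 change was 1.32 under DFO (limma adjusted p = 0.0014), 1.39 under Deferasirox (limma adjusted p = 0.0023) and 1.09 under OICR623 (limma adjusted p = 0.19, not called). The share of all genes called without a block was 0.245% for DFO, 0.234% for Deferasirox and 0.038% for OICR623. Without a block the median change of all genes was -0.15 for Deferasirox and -0.11 for OICR623, against 0.0020 for DFO. With the replicate number as a block, NDRG1 under OICR623 was at 1.00 and not called either (limma adjusted p = 0.10). That block joins OICR623 1 and Deferasirox 1 of the middle level with DFO 1 and DMSO 1 of the high level. It therefore leaves level differences in the contrasts of OICR623 and Deferasirox with DMSO.

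**Figure D2:**
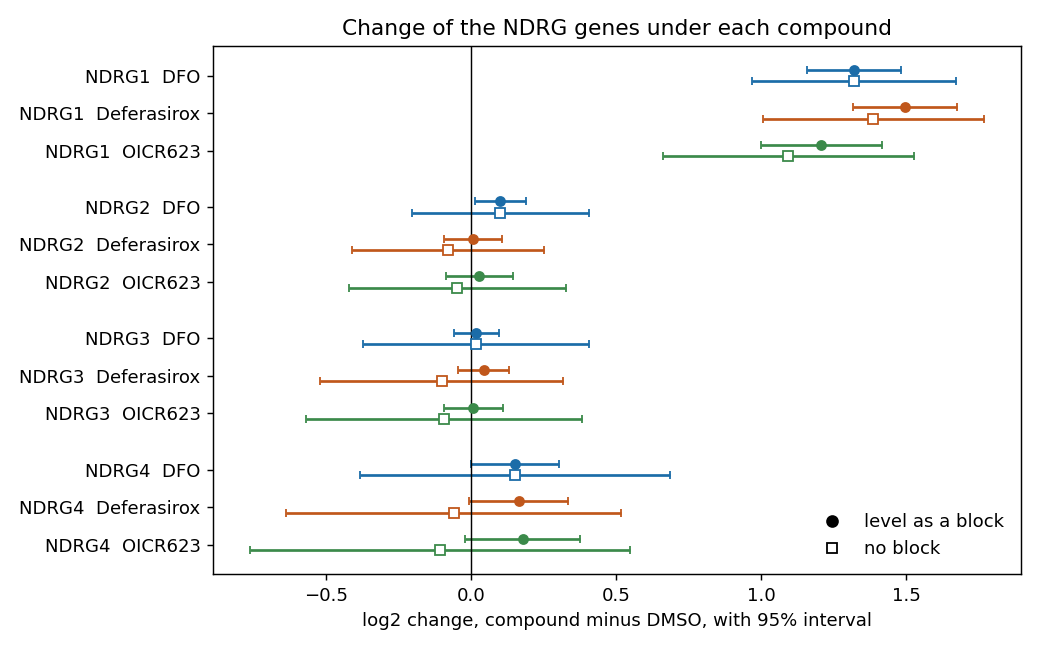
Log2 change of each NDRG gene, compound minus DMSO (x axis), with 95% intervals, for DFO, Deferasirox and OICR623 (rows). Filled circles have the level as a block and open squares have no block; NDRG1 lies between 1.09 and 1.50 in all of them, and the other 3 members lie between -0.11 and 0.18.

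The compounds were set side by side at doses that differ. In the middle level the 2 Deferasirox arrays were highest for NDRG1 (11.99 and 11.99), the 2 DFO arrays lay next (11.88 and 11.90) and the 2 OICR623 arrays were lowest (11.71 and 11.74). These 3 pairs of arrays did not overlap, but the share of all genes that separate in this way was not counted, so no order is read from it. With the level as a block, NDRG1 under Deferasirox was at 0.18 relative to DFO (interval -0.0028 to 0.36; limma adjusted p = 0.50). It was -0.11 under OICR623 relative to DFO (interval -0.32 to 0.097; limma adjusted p = 0.99). Relative to Deferasirox it was -0.29 under OICR623 (interval -0.50 to -0.075), an interval that leaves out 0 for this gene alone but with a limma adjusted p of 0.41 over all genes. None of the 4 members was called between compounds, where 0.0435% of all genes were called for Deferasirox against DFO, 0.168% for OICR623 against DFO and 0.0869% for OICR623 against Deferasirox. With the level as a block, NDRG1 was thus called between each compound and DMSO, and not between any of the compounds.

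NDRG2 was not called under any compound. Its log2 signal was 8.09, 7.77, 7.83 and 7.83 in the DFO arrays, 7.70, 7.73 and 7.66 in the Deferasirox arrays and 7.70 and 7.76 in the OICR623 arrays. In DMSO it was 8.09, 7.68, 7.71 and 7.63. DFO 1 and DMSO 1 were the highest arrays and hold the same value, so the groups overlapped. The other 3 DFO arrays lay above the other 3 DMSO arrays, but the share of all genes that do so was not counted. With the level as a block NDRG2 was at 0.10 under DFO (SE 0.040, interval 0.012 to 0.19; limma adjusted p = 0.24), with 0 in the high level, 0.10 in the middle level and 0.20 in the low level. Without DFO 1 and DMSO 1 the value was 0.13 (limma adjusted p = 0.16). Under Deferasirox it was 0.0059 (interval -0.093 to 0.11) and under OICR623 0.028 (interval -0.088 to 0.14), and neither was called. These values were 0.023 and 0.044 without DFO 1 and DMSO 1.

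NDRG3 was not called under any compound either. Its signal was 11.72, 11.18, 11.17 and 11.07 in the DFO arrays, 11.20, 11.25 and 11.04 in the Deferasirox arrays and 11.14 and 11.21 in the OICR623 arrays, against 11.70, 11.14, 11.18 and 11.05 in DMSO. The groups overlapped, and within each group the arrays followed their level. The change was 0.017 under DFO (interval -0.061 to 0.095), 0.042 under Deferasirox (interval -0.045 to 0.13) and 0.0071 under OICR623 (interval -0.095 to 0.11), with limma adjusted p values of 0.89, 0.67 and 0.98. The 3 values were 0.019, 0.043 and 0.0079 without DFO 1 and DMSO 1. These intervals leave out any change of NDRG3 transcript as large as that of NDRG1, and say nothing of the NDRG3 protein, which was not measured.

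NDRG4 varied most within a group. Its signal was 7.95, 7.08, 7.17 and 7.22 in the DFO arrays, 7.01, 7.12 and 7.29 in the Deferasirox arrays and 6.96 and 7.23 in the OICR623 arrays, against 7.95, 6.96, 6.79 and 7.11 in DMSO. The groups overlapped, and DFO 1 and DMSO 1, again equal, were the highest arrays. With the level as a block it was at 0.15 under DFO (SE 0.069, interval -0.0019 to 0.30), 0.16 under Deferasirox (SE 0.077, interval -0.0077 to 0.33) and 0.18 under OICR623 (SE 0.090, interval -0.021 to 0.38). None of the 3 was called (limma adjusted p = 0.33, 0.31 and 0.54). Without DFO 1 and DMSO 1 they were 0.20, 0.19 and 0.20 (limma adjusted p = 0.24, 0.25 and 0.49). Under OICR623 the value was 0.31 without OICR623 1 and 0.046 without OICR623 2, and under Deferasirox it was 0.11 without DMSO 3. The step from the middle to the high level was 0.96 for NDRG4, larger than for 85.4% of all genes, against 0.45 for NDRG1, 0.34 for NDRG2 and 0.54 for NDRG3 and a median of 0.58 over all genes.

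Whether NDRG1 changed by more than its relatives was tested on the difference of 2 members within each array. NDRG1 minus NDRG2 was 4.07 ± 0.035 under DFO (SD, n = 4), 4.32 ± 0.083 under Deferasirox (n = 3), 3.99 ± 0.016 under OICR623 (n = 2) and 2.85 ± 0.14 in DMSO (n = 4). NDRG1 minus NDRG3 was 0.67 ± 0.19 under DFO, 0.85 ± 0.16 under Deferasirox, 0.55 ± 0.021 under OICR623 and -0.64 ± 0.083 in DMSO. NDRG1 minus NDRG4 was 4.60 ± 0.29 under DFO, 4.87 ± 0.098 under Deferasirox, 4.63 ± 0.16 under OICR623 and 3.43 ± 0.22 in DMSO. In all 9 comparisons the compound lay above DMSO without overlap. These comparisons share NDRG1 and the DMSO arrays, and the share of other gene pairs separated in this way was not counted. The exact permutation test (two-sided) gave p = 0.029 for the 3 DFO differences, p = 0.057 for the 3 of Deferasirox and p = 0.13 for the 3 of OICR623, each the smallest that these numbers of arrays allow. Adjusted over the 9 tests these exact values were 0.086 for DFO and Deferasirox and 0.13 for OICR623. With these numbers of arrays no outcome could have passed 0.05 after adjustment, so these tests could not decide the question. With the level as a block, the response of NDRG1 exceeded that of another member by 1.03 to 1.49, with SEs of 0.066 to 0.11. Across the 13 arrays after the level effects were subtracted, NDRG1 correlated with NDRG4 at r = 0.72, with NDRG2 at 0.44 and with NDRG3 at 0.41, values that include the step between compounds and DMSO. With the group means subtracted too, these were 0.57, 0.64 and -0.15. They include DFO 1 and DMSO 1, where NDRG2 and NDRG4 hold equal values and NDRG1 differed by 0.98, less than in the other levels. They were not computed without these arrays, so they are not read as shared variation of the members.

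Promoter sequence bears on the HIF link of the family and was at hand for 2 of the 4 genes. RefSeq promoter windows (GRCh38.p14) were given for NDRG2 (5 start sites) and NDRG4 (4 start sites) and were searched over the 250 bases before each start for the core of the HIF motif, ACGTG or GCGTG on either strand. At least 1 match was found in 3 of 5 NDRG2 windows and in 1 of 4 NDRG4 windows, against 43.2% of 35116 windows of this length. Of the 8 genes whose pattern was most like that of NDRG1, described further on, 6 had a window with a match, against 47.4% of all genes with a window. The windows with the most matches are shown for NDRG4 and NDRG2, which were not called, beside that of BHLHE40, a HIF-induced repressor whose pattern followed NDRG1. Each is written 5′ to 3′ on the strand of the gene, with matches in capitals.
BHLHE40, chr3:4979187-4979436, plus strand: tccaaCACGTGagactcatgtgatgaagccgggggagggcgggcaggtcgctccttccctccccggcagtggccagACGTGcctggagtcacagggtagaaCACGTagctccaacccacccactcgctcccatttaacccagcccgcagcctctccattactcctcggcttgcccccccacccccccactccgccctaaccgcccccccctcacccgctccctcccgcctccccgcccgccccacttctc
NDRG2, chr14:21025062-21025311, minus strand: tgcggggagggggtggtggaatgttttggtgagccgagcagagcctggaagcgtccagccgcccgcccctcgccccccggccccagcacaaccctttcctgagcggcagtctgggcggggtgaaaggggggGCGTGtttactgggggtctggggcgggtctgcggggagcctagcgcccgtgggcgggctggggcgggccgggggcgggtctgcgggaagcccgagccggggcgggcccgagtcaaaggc
NDRG4, chr16:58463465-58463714, plus strand: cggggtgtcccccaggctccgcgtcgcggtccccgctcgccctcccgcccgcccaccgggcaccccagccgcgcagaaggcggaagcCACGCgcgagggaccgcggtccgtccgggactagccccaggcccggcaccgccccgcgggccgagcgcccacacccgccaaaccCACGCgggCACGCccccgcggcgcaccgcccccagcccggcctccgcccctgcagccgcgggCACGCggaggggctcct
The palindrome CACGTG in BHLHE40 holds the core on both strands and counts as 2 overlapping matches. NDRG4 and BHLHE40 each hold 4 matches and NDRG2 holds 1, while GC content was 82.8% for NDRG4, 68.4% for BHLHE40 and 74.8% for NDRG2. A match is only these letters, and the equal number in a gene that was called and in one that was not is a description of the windows.

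The genes whose pattern over the 13 arrays was most like NDRG1, after the level effects were subtracted, were ERRFI1 (r = 0.999), TGFA (0.997), CHST15 (0.995), ARRDC3 (0.994), MOB3A (0.994), BHLHE40 (0.993), CEMIP (0.993) and FGD5 (0.993). All share the same arrays, and each r includes the step between the compounds and DMSO. In all, 228 genes had an r over 0.9. Without DFO 1 and DMSO 1 the r of these 8 genes was 0.993 to 0.999. On the values as deposited, with the level effects left in, it was 0.907 for TGFA, 0.865 for CEMIP, 0.875 for FGD5 and 0.965 to 0.996 for the other 5. ERRFI1, which restrains EGF receptor signalling, was 1.96 higher under DFO (SE 0.098), 2.21 under Deferasirox (SE 0.11) and 1.77 under OICR623 (SE 0.13). TGFA, a ligand of the same receptor, was 1.04 higher under DFO (SE 0.059), 1.24 under Deferasirox (SE 0.066) and 1.01 under OICR623 (SE 0.077). ARRDC3, an arrestin-domain protein, had changes of 2.34, 2.57 and 2.20 in the same order of compounds, and FGD5, an exchange factor for Cdc42, had 0.74, 0.85 and 0.71. As the 8 genes were chosen for their likeness to NDRG1 on these arrays, their order over the compounds and their calls follow largely from that choice.

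**Figure D3:**
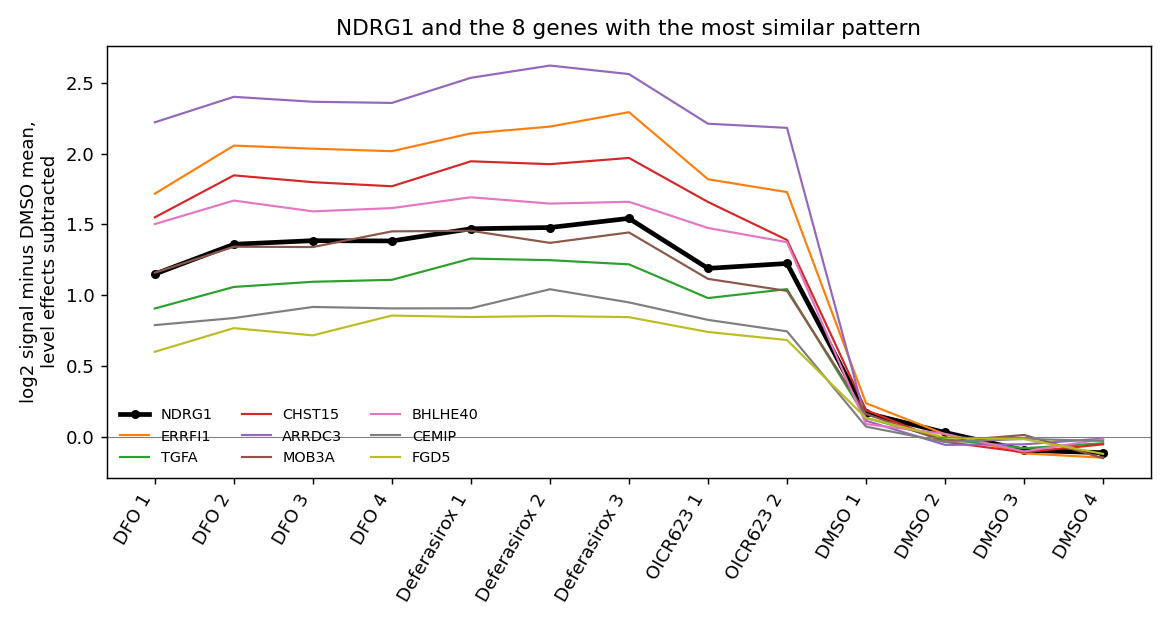
Log2 signal relative to the DMSO mean, with level effects subtracted (y axis), on each of 13 arrays (x axis) for NDRG1 (thick black line) and the 8 genes with the highest correlation to it. All 9 genes step up between DMSO and the compounds, with NDRG1 about midway among them in size.

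With the level effects subtracted, the other members were matched less closely and by genes that were not called. The r values of NDRG1 include its called step between the compounds and DMSO, so they are not like for like with these. For NDRG2 the most similar genes were ITGB6 (r = 0.948), an integrin subunit of epithelia, TTYH3 (0.939) and CHRNB1 (0.924). For NDRG3 they were PDLIM7 (0.934), RPL7A (0.932), a ribosomal protein, and BTF3 (0.928). For NDRG4 they were FOXR1 (0.938), DAW1 (0.912) and OR10J5 (0.898), an olfactory receptor gene. With the level effects left in, r was 0.813 for FOXR1, 0.499 for DAW1 and 0.737 for OR10J5 with NDRG4, 0.852, 0.957 and 0.743 for ITGB6, TTYH3 and CHRNB1 with NDRG2, and 0.821, 0.978 and 0.996 for PDLIM7, RPL7A and BTF3 with NDRG3. The changes of these 9 genes ranged up to 0.28, for ITGB6 under DFO (limma adjusted p = 0.063). As they were chosen for likeness to members that were not called, their lack of calls follows largely from that choice.

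Of the regulators of NDRG1 transcription, 12 of 14 listed genes were measured, and most of their transcripts were not called. Under DFO 2 were higher and 1 lower, under Deferasirox 2 were higher and 0 lower, and under OICR623 1 was higher and 0 lower. Over all genes 4.6%, 5.84% and 0.734% were called in the same order, in either direction. EGLN3, a prolyl hydroxylase that marks HIF alpha subunits and is itself induced by HIF, was 1.98 higher under DFO, 1.94 under Deferasirox and 1.71 under OICR623, above NDRG1 in each. EGLN1, the main hydroxylase of this kind, was 0.33 higher under DFO (limma adjusted p = 0.0021) and 0.30 under Deferasirox (limma adjusted p = 0.0078), and at 0.31 under OICR623 (limma adjusted p = 0.054). MYC, a repressor of NDRG1, fell by 0.41 on the log2 scale under DFO (limma adjusted p = 0.0010), and was at -0.14 under Deferasirox (limma adjusted p = 0.24) and -0.27 under OICR623 (limma adjusted p = 0.14). Whether MYC differed between the compounds was not tested. The transcripts of HIF1A (-0.070, 0.0016 and -0.031 under DFO, Deferasirox and OICR623), EPAS1, ARNT and VHL were not called. The median change of the list was -0.028, 0.056 and 0.023 in the same order, beside 0.0020, 0.0022 and 0.0035 over all genes.

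SGK1 was the only called gene among the listed kinases of NDRG1 phosphorylation and their activators, and it was not called without a block. Over all genes, 4.6% were called under DFO, 5.84% under Deferasirox and 0.734% under OICR623, in either direction. Of 7 measured kinases and activators tied to NDRG1 phosphorylation, 1 was called higher and 0 lower under each compound, and it was SGK1, at 0.62 under DFO (limma adjusted p = 5.0e-04), 0.86 under Deferasirox (limma adjusted p = 1.4e-04) and 0.66 under OICR623 (limma adjusted p = 0.010). SGK1 phosphorylates NDRG1 at sites that prime it for GSK3, whose genes GSK3A and GSK3B had changes between -0.060 and 0.12 and were not called. Phosphorylation itself was not measured.

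Among 14 measured genes of proteins tied to what NDRG1 does, 2 were called higher under DFO, 2 under Deferasirox and 1 under OICR623, and 0 were called lower. They were ERRFI1, given above, and CDKN1A, the cell cycle inhibitor p21, at 0.39 under DFO (limma adjusted p = 0.0014), 0.48 under Deferasirox (limma adjusted p = 8.0e-04) and 0.31 under OICR623 (limma adjusted p = 0.090). Transcripts of E-cadherin (CDH1), beta-catenin (CTNNB1), SMAD4, EGFR, ERBB2, ERBB3, MET, SRC and CCND1 were not called. Over all genes 4.6%, 5.84% and 0.734% were called under DFO, Deferasirox and OICR623, in either direction. Without DFO 1 and DMSO 1 but with the level as a block, the counts of these 3 lists were the same except that EGLN1 (limma adjusted p = 0.038) and CDKN1A (limma adjusted p = 0.017) were also called under OICR623. Without a block, EGLN3 and ERRFI1 were the only genes of these 3 lists called under each compound, so EGLN1, MYC, SGK1 and CDKN1A rest on the block.

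NDRG1 rose among other genes that HIF induces. Of 21 measured genes of this kind, 17 were called higher under DFO, 18 under Deferasirox and 14 under OICR623, and 0 were called lower. Over all genes 4.6%, 5.84% and 0.734% were called in the same order, in either direction. The median change of the 21 genes was 0.80 under DFO, 0.93 under Deferasirox and 0.55 under OICR623. The NDRG1 change was larger than these medians in each, and 6, 6 and 4 of the 21 genes changed by more. Under DFO those above NDRG1 were DDIT4, an inhibitor of mTOR signalling (3.08), ADM (2.15), EGLN3, VEGFA (1.69), BHLHE40 (1.59) and ANGPTL4 (1.40). VEGFA, the angiogenic factor, was 1.69 higher under DFO and 1.02 under OICR623, where NDRG1 was at 1.32 and 1.21, so their order differed between these compounds, which was not tested. BNIP3, LDHA and ALDOC were not called under any compound. TFRC, the transferrin receptor, whose mRNA is also stabilised when iron is low, was at 0.22, 0.23 and 0.32 under DFO, Deferasirox and OICR623. Without a block TFRC was at 0.22, -0.0073 and 0.022 and was not called. Without a block, 8, 6 and 2 of the 21 were called, and without DFO 1 and DMSO 1 but with the level as a block 17, 18 and 13, as TFRC was then not called under OICR623.

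**Figure D4:**
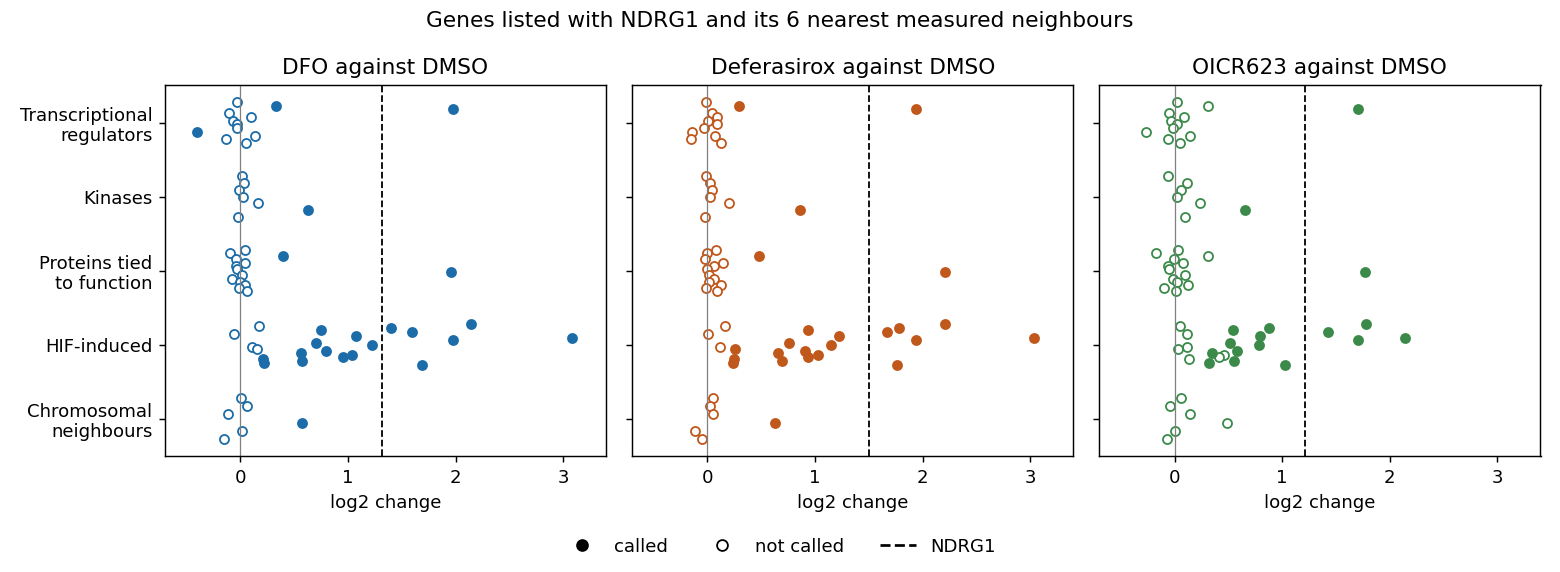
Log2 change against DMSO (x axis) of the genes of each list and of the 6 measured genes nearest to NDRG1 (rows), for DFO, Deferasirox and OICR623 (panels). Filled points were called, open points were not, and the dashed line marks NDRG1. Under DFO 17 of 21 HIF-induced genes are called higher, beside 4.6% of all genes called in either direction. In the other rows 2 of 12 regulators are called higher and 1 lower. Of the kinases 1 of 7, of the genes tied to function 2 of 14 and of the neighbours 1 of 6 are called higher.

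The genes beside the members on their chromosomes were mostly not called. Of 24 measured neighbours, the 3 nearest on each side of each member, 1 was higher under DFO, 1 under Deferasirox and 0 under OICR623, and 0 were lower, beside the 4.6%, 5.84% and 0.734% of all genes called in either direction. A count of 1 in 24 is near that background under DFO and Deferasirox. The called gene was ST3GAL1, a sialyltransferase gene that lies next to NDRG1, at 0.57 under DFO (SE 0.075, limma adjusted p = 0.0011), 0.63 under Deferasirox (SE 0.084, limma adjusted p = 0.0012) and 0.49 under OICR623 (SE 0.097, limma adjusted p = 0.056). Without DFO 1 and DMSO 1 it was called under OICR623 too (limma adjusted p = 0.046), and without a block it was not called under any compound. The gene next to NDRG1 on its other side, CCN4, was at 0.0046, 0.051 and 0.063 in the same order and was not called. None of the 6 neighbours of NDRG2, of NDRG3 or of NDRG4 was called.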

How the data were processed

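RNA of 13 samples was hybridised to Affymetrix Human Gene 1.0 ST arrays. The authors deposited 1 log2 signal for each transcript cluster on each array, a unit read from the range of values. GCRMA and limma appear in the submitters' processing notes, and their versions and steps are not given in the sources used here. No detection calls come with the values. Of 32321 clusters, 19158 had 1 gene symbol in the probe table, and the cluster with the highest mean was kept for each of 18404 genes, with no filter on dim genes. Levels were separated where neighbouring array medians lay over 0.05 apart. Group differences came from limma 3.58.1 (R 4.3.3) over all 13 arrays, with the level as a block and eBayes. Calls needed an adjusted p (Benjamini-Hochberg, all genes) under 0.05. The number of arrays limits the precision. Differences between members were tested by exact permutation. The limma fit was tested on data simulated from the level-block fit with independent errors. That setting cannot test the choice of block or the equal values of DFO 1 and DMSO 1. Its requirement on detected changes left out OICR623.

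As a check of pairing by replicate number, each array's deviation from the mean of its group was correlated, across genes, with that of the array of the same number. For DFO and DMSO it was 0.945, 0.662, 0.738 and 0.788, but same-numbered arrays also share a level. The reported tests therefore do not use the numbers as pairs, and a replicate block was run as an alternative. For Deferasirox and DMSO the correlation was -0.058, 0.33 and -0.32, and the arrays numbered 1 and those numbered 3 lie in different levels.

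The members, the lists and the naming rule were chosen with earlier results of these data known. The rule names the 4 members, the 8 genes most correlated with NDRG1 and the 3 most correlated with each other member, the 3 nearest measured genes on each side, and members of 4 lists. The reference gene table (GRCh38.p14) served for neighbours and for gene names, where 19128 clusters were matched and 0 symbols were changed.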

Additional observations from a re-analysis of the deposited data

Results flagged for a closer look

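Of 8 groups of 4 arrays checked, 2 for each member, 2 had an array that stood far from the other 3. NDRG1 in DFO 1 had a log2 signal of 12.1124, while the other DFO arrays lay between 11.88 and 11.91. NDRG4 in DFO 1 had a log2 signal of 7.95283, while the other DFO arrays lay between 7.08 and 7.22. Chance marks about 1 in 20 such groups. In all 8 groups, however, the most distant array was DFO 1 or DMSO 1, the arrays of the high level. The gap to the nearest array, as a part of the range, was 0.853 and 0.843 in the flagged groups and 0.723 to 0.826 in the others. DFO 1 is the only DFO array of the high level, so the array and its level cannot be told apart.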

How the results depend on the processing

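NDRG1 was called higher than DMSO in all 21 alternatives for DFO (1.26 to 1.43) and all 19 for Deferasirox (1.34 to 1.55). For OICR623 it was called in 16 of 18 (1.00 to 1.26), and not without a block (1.09, limma adjusted p = 0.19) or with the replicate number as a block in place of the level (1.00, limma adjusted p = 0.10). For each compound, leaving out DMSO 1 gives the same fit as leaving out DFO 1 with it, as does leaving out DFO 1 for DFO, so these alternatives are not distinct. Between compounds NDRG1 was not called in any alternative and kept its sign. NDRG2, NDRG3 and NDRG4 were not called in any, and under DFO kept their sign. The replicate block joins arrays of different levels for Deferasirox and OICR623. With it, NDRG2, NDRG3 and NDRG4 had changes of -0.11, -0.17 and -0.099 under Deferasirox and -0.12, -0.24 and -0.23 under OICR623. Without a block these were -0.081, -0.10 and -0.061 under Deferasirox and -0.048, -0.094 and -0.11 under OICR623. With arrays centred on their medians, NDRG4 was at -0.0095 under OICR623. Leaving out 1 array at a time, NDRG2 ranged over -0.017 to 0.023 under Deferasirox and -0.00079 to 0.056 under OICR623, NDRG3 over -0.025 to 0.039 under OICR623, and NDRG4 over 0.10 to 0.20 under DFO, lowest without DMSO 3, 0.11 to 0.20 under Deferasirox and 0.046 to 0.31 under OICR623. NDRG2 fell below 0 under Deferasirox without DMSO 2 (-0.0026), Deferasirox 2 (-0.0090) or DMSO 4 (-0.017), and NDRG3 under OICR623 without DMSO 2 (-0.0083) or OICR623 2. The causes were not tested. The differences of NDRG1 and another member kept their sign in every alternative run, and no member has another cluster that could be used alone.

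Counts of called genes moved more. For DFO, Deferasirox and OICR623 against DMSO, 847, 1074 and 135 genes were called with the level as a block. With the replicate block the counts were 78, 127 and 10, without a block 45, 43 and 7, with medians centred 154, 170 and 19, with the median as a covariate 306, 329 and 41, and over the middle level alone 274, 326 and 81. For Deferasirox against DFO, OICR623 against DFO and OICR623 against Deferasirox, 8, 31 and 16 genes were called. The counts were 0, 0 and 0 with the replicate block or without a block, where limma gave 44, 60 and 47 genes an unadjusted p under 0.05 without a block. They were 20, 47 and 56 with the level as a random block, 0, 17 and 0 with the covariate, 0, 9 and 0 with medians centred, and 85, 58 and 119 with a trend in the moderation. Over the middle level alone they were 0 for Deferasirox against DFO and 7 for OICR623 against Deferasirox. With the arrays of 2 groups alone, 656 genes were called for Deferasirox and 32 for OICR623 against DMSO, and 0 for Deferasirox against DFO and for OICR623 against Deferasirox. Among genes above the median gene, the counts were 303 for OICR623 against DMSO, 107 for Deferasirox against DFO and 103 for OICR623 against Deferasirox. For OICR623 against DMSO, 338 were called with a trend and 74 over all transcript clusters. Leaving out 1 array at a time gave 494 to 769 for DFO, lowest without DFO 4, 546 to 986 for Deferasirox, lowest without Deferasirox 3, and 33 to 173 for OICR623, lowest without OICR623 1. Between compounds it gave 0 to 10 for Deferasirox against DFO, 8 to 29 for OICR623 against DFO and 0 to 21 for OICR623 against Deferasirox. Leaving out DFO 1 with DMSO 1, and a replicate block over the DFO and DMSO arrays alone, were alternatives chosen after seeing the data.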
